A study of Mus musculus with 6 samples.

Results

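Inward rectifier (Kir) potassium channels and the sulfonylurea receptors that assemble with some of them were followed in hearts of mice lacking miR-1-2, against wild-type hearts. The members were 8 genes chosen by name: the pores Kcnj2, Kcnj12, Kcnj3, Kcnj5, Kcnj8 and Kcnj11 and the sulfonylurea receptors Abcc8 and Abcc9. Every probe set whose platform annotation gave 1 of these symbols was taken, which gave 16 of the 45037 probe sets tested and 8 of the 18193 genes that had a probe set. The rule uses no measured value, though the genes were proposed with earlier results of these data known.

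Whole hearts came from 3 miR-1-2 knockout mice and 3 wild-type mice, all at postnatal day 10, and total RNA was hybridised to 1 Affymetrix mouse expression array per heart. The knockout removes 1 of the genes that encode miR-1, the abundant microRNA of striated muscle, while the other miR-1 gene is left in place, as general background. The sources used here give no strain, litter or sex. The level of miR-1 itself was not analysed here, so these values do not check the deletion. All values are log2 expression after RMA, a method that brings probe intensities of all arrays to 1 distribution and gives 1 value per probe set. The array medians of the resulting values still ran from 6.03 to 6.11. A difference of 1 on this scale is a doubling. Probes differ in brightness, so the signal of a probe set is called dim or bright only as its rank on these arrays, and levels of different genes were not compared.

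Kir channels pass potassium more easily into the cell than out of it. In heart muscle the Kir2 pores carry the background current that holds the resting potential, the Kir3 pores carry the acetylcholine-activated current of atrium and sinus node, and the Kir6 pores with a sulfonylurea receptor form the KATP channel, which opens when ATP falls. Kcnj2 has been reported as a target of miR-1 in the heart.

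The 6 arrays correlated between 0.991 and 0.997 over all probe sets, and none was a copy of another. The female-specific transcript Xist read 7.55, 12.19 and 7.57 in knockout replicates 1, 2 and 3, against 11.91, 12.13 and 12.08 in wild-type replicates 1, 2 and 3. The Y-linked gene Eif2s3y read 7.63, 2.91 and 8.35 in the knockout hearts and 3.16, 2.85 and 2.99 in the wild-type hearts. Knockout hearts 1 and 3 thus differed from the other 4 in both transcripts, and sex was not balanced between the genotypes. The brown fat marker Ucp1 was high in replicate 1 of both genotypes (10.39 in the knockout and 9.45 in the wild type), against 5.28 to 6.68 in the other knockout hearts and 5.22 to 5.50 in the other wild-type hearts. Ventricular and general heart muscle genes were bright throughout, with a mean over 8 genes of 13.76 to 13.83 in knockout hearts and 13.74 to 13.81 in wild-type hearts.

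None of the 16 probe sets passed limma's test at an adjusted p of 0.05. In the fit over all 45037 probe sets 3 passed, or 0.00666%. With same-numbered hearts as a block the members' count was also 0, against 20 probe sets or 0.0444%, and 3 members had an unadjusted p under 0.05, against 6.49% of all probe sets. The adjusted p was 1.00 for each of the 16. At an unadjusted p of 0.05, 2 of the 16 were below the threshold, both of Kcnj3 and both lower in knockout hearts. That compares with 3.94% of all probe sets in either direction and 2.12% in the lower direction. Of the members, 7 were higher and 9 lower in knockout hearts, with a median difference of -0.049 against -0.0064 over all probe sets. The difference was smaller than 0.25 in size for 14 of the 16. For the 12 probe sets outside Kcnj3, every 95% confidence interval lay between -0.46 and 0.44.

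**Figure D1:**
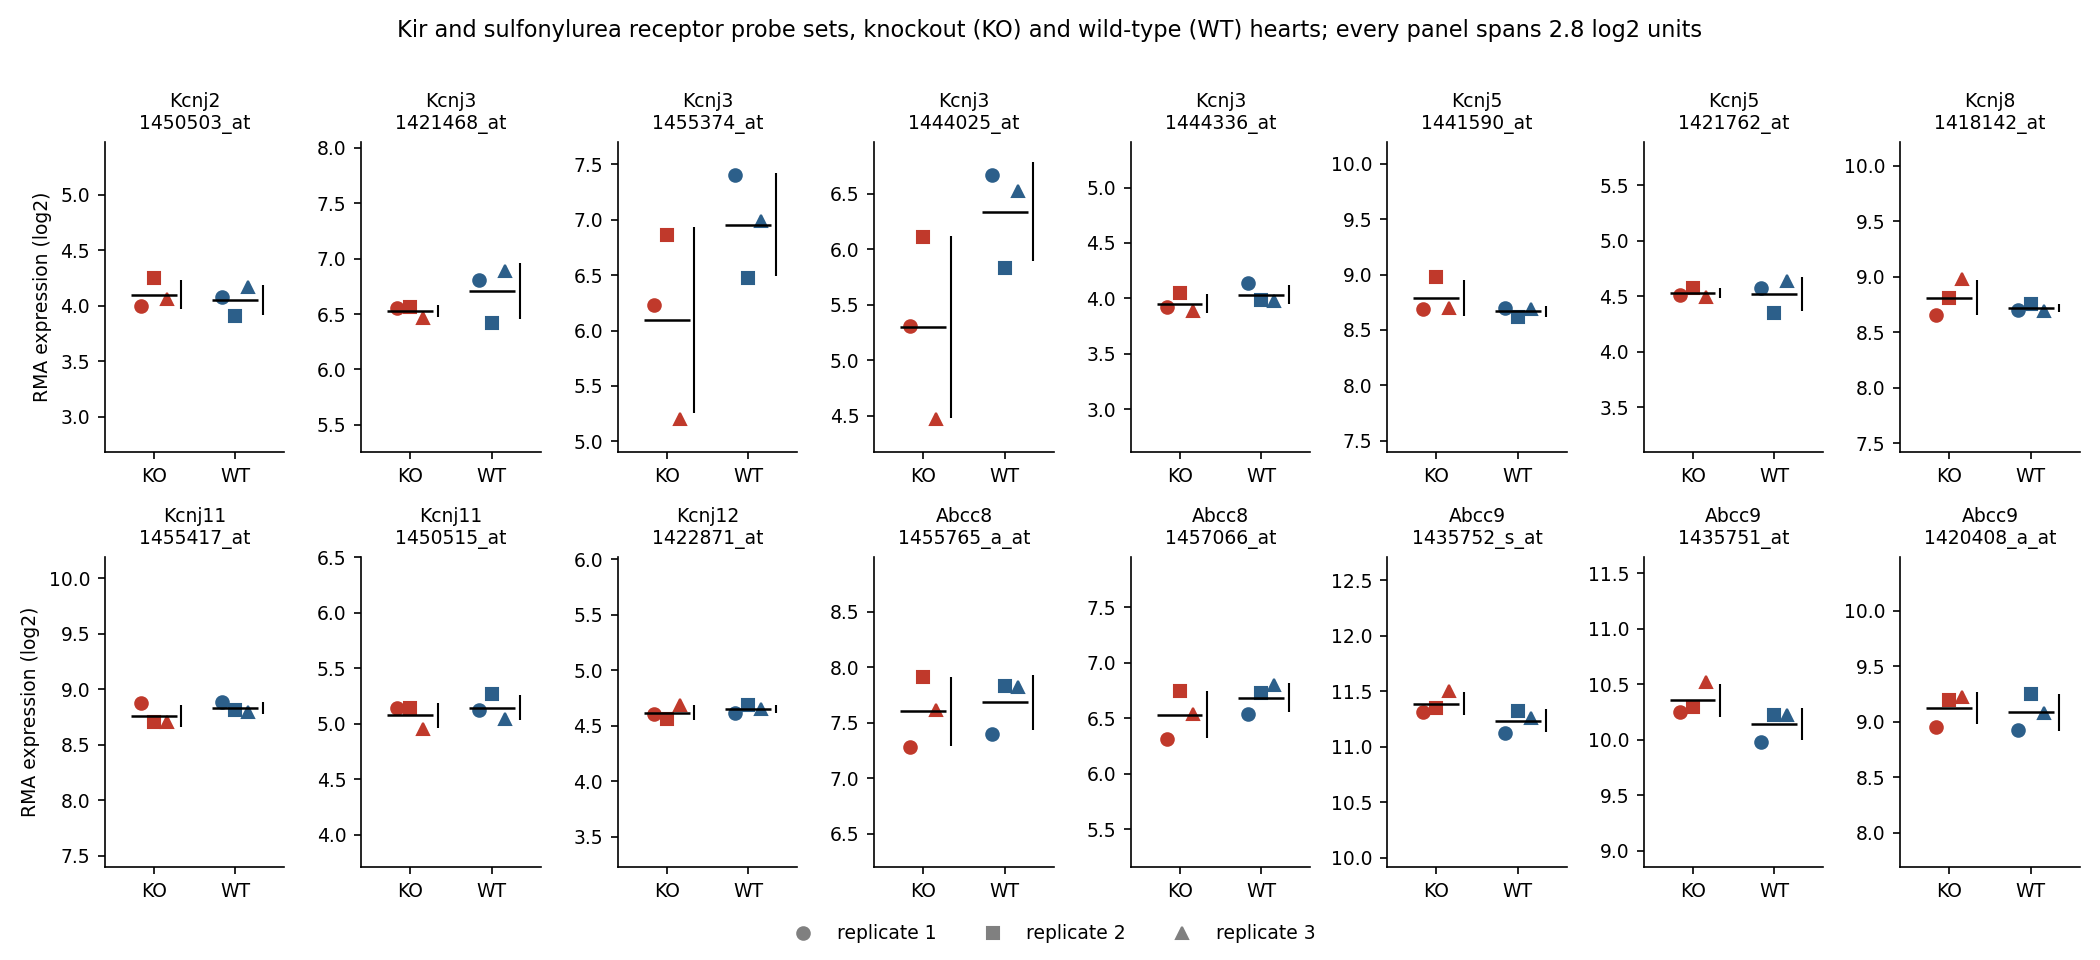
RMA expression (log2) of each of the 16 probe sets in each heart, knockout (KO, red) left of wild type (WT, blue), with the replicate number as the symbol. Horizontal lines are group means, vertical lines are 1 SD either side of the mean (n = 3), and every panel spans 2.8 log2 units. Kcnj3 1455374_at and 1444025_at spread widely within both groups and the other 14 spread less. The widest of these is Abcc8 1455765_a_at, with an SD of 0.31 in knockout hearts and 0.25 in wild-type hearts.

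Among the Kir2 pores, neither gene differed between the genotypes beyond the spread between hearts. Kcnj2 encodes Kir2.1, the main pore of the resting current in ventricular muscle. Its probe set 1450503_at read 4.0, 4.25 and 4.06 in knockout hearts, against 4.08, 3.91 and 4.17 in wild-type hearts. The groups overlapped, and knockout replicate 2 held the highest value and wild-type replicate 2 the lowest. The means were 4.10 ± 0.13 in knockout hearts and 4.05 ± 0.13 in wild-type hearts (SD, n = 3 each), a difference of 0.05 with a 95% interval of -0.17 to 0.27. The probe set was dim: only 13.1% of all probe sets had a lower mean. Low RMA values understate differences, so a change in Kcnj2 could be larger than the interval states.

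Kcnj12 encodes Kir2.2, a second Kir2 pore that can assemble with Kir2.1. Its probe set 1422871_at read 4.60, 4.56 and 4.69 in knockout hearts and 4.61, 4.68 and 4.65 in wild-type hearts. The groups overlapped, and all 6 values lay within 0.13 of each other. The difference was -0.03, with a 95% interval of -0.20 to 0.13. This probe set was also dim, with 22.4% of all probe sets below it.

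Among the Kir3 pores, some Kcnj3 probe sets had profiles unlike those of Kcnj5 over these hearts. Kcnj3 encodes Kir3.1 and Kcnj5 encodes Kir3.4, and both join in the channel that G protein beta-gamma subunits open after acetylcholine or adenosine binds its receptor. Kcnj3 1455374_at and 1444025_at were the only probe sets of the 16 that spread over more than 1 log2 unit between hearts. At the brightest probe set of each gene the range over the hearts was 0.47 for Kcnj3 (1421468_at) and 0.37 for Kcnj5 (1441590_at).

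The 250 bases before the annotated start of each Kir3 gene are shown because some probe sets of these channel partners differed in profile. The bases come from RefSeq (GRCm38.p6) and are given 5′ to 3′ on the gene's strand. The Kcnj3 window lies at chr2:55435720-55435969 on the plus strand, and its capitals mark a CCAAT box (read on the opposite strand) and a T-box half-site AGGTGTG (likewise on the opposite strand). The Kcnj5 window lies at chr9:32344345-32344594 on the minus strand, and its capitals mark the GC box GGGCGG.
Kcnj3: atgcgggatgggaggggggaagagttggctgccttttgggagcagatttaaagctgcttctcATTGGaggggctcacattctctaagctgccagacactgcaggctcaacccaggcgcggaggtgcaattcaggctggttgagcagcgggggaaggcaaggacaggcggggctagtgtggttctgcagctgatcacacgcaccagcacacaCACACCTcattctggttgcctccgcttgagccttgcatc
Kcnj5: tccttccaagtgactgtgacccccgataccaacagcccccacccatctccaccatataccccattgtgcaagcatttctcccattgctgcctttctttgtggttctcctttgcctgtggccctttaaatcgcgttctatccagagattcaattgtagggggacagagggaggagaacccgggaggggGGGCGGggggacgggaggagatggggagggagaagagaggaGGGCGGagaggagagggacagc
Both windows were rich in G and C, at 58.4% for Kcnj3 and 58% for Kcnj5. The Kcnj3 window held 1 CCAAT, 188 bases before the start, and 1 AGGTGTG, 39 bases before it. CCAAT occurs in 33.8% of 32851 windows of the same length and AGGTGTG in 5.10%. The Kcnj5 window held GGGCGG at 63 and 22 bases before the start, a motif found in 32.7% of windows, and the Kcnj3 window held none. Both strands were searched, also for GATAA (in 22.6% of windows), AGGTCA (14%), CACGTG (6.02%), TATAAA (12.4%), the MEF2 site (2.92%) and the CArG box (1.47%), and neither window held these. These matches describe letters in a window and not factor binding, which was not measured.

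Of the 4 Kcnj3 probe sets, all had a lower mean in knockout hearts and 0 passed the test. Probe set 1444025_at read 5.31, 6.11 and 4.47 in knockout hearts, against 6.67, 5.83 and 6.52 in wild-type hearts. Knockout heart 3 was the lowest and wild-type heart 1 the highest, and knockout heart 2 lay above wild-type heart 2, so the groups overlapped. The mean difference was -1.04 (SE 0.36, 95% interval -1.87 to -0.22, limma unadjusted p = 0.0186, adjusted p = 1.00).

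Probe set 1455374_at ran the same way. It read 6.23, 6.86 and 5.20 in knockout hearts and 7.40, 6.47 and 6.99 in wild-type hearts. The mean difference was -0.86 (SE 0.37, 95% interval -1.70 to -0.01, limma unadjusted p = 0.0473, adjusted p = 1.00). Its spread within groups exceeded that of 99.9% of all probe sets. The remaining Kcnj3 probe sets differed less. Probe set 1421468_at read 6.56, 6.56 and 6.46 in knockout hearts, against 6.81, 6.42 and 6.89 in wild-type hearts, a difference of -0.18 (95% interval -0.45 to 0.09). The knockout values lay close together and within the wild-type range. The dim probe set 1444336_at differed by -0.08.

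The pairs of same-numbered hearts did not go one way. For 1444025_at the knockout minus wild-type difference was -1.36 in pair 1, 0.28 in pair 2 and -2.05 in pair 3. For 1455374_at it was -1.17, 0.39 and -1.79. Each of the 4 Kcnj3 probe sets was higher in the knockout only in pair 2. Knockout heart 3 had the largest part in the mean: without it the differences were -0.63 for 1444025_at and -0.41 for 1455374_at. With Xist as a covariate they were -0.29 and -0.15. Only knockout heart 2 among the knockout hearts had Xist at the wild-type level, so these values rest mainly on that heart. Without pair 2 and with the pair as a block the differences were -1.71 (limma adjusted p = 2.16e-04) and -1.48 (limma adjusted p = 4.6e-04). There both knockout hearts were low in Xist and both wild-type hearts high, so sex and genotype cannot be told apart.

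Kcnj3 is known as an atrial gene, and markers of atrial muscle moved with it from heart to heart. The mean of the 6 atrial markers Nppa, Sln, Myl7, Myl4, Bmp10 and Nr2f2 was 10.28, 10.57 and 9.32 in knockout hearts, against 10.74, 10.15 and 10.66 in wild-type hearts. Sln, which encodes the atrial calcium pump regulator sarcolipin, read 10.79, 11.46 and 9.0 in knockout hearts and 11.63, 10.78 and 11.56 in wild-type hearts. Myl4, an atrial myosin light chain, read 11.88, 12.27 and 10.67 in knockout hearts and 12.58, 11.55 and 12.35 in wild-type hearts. Knockout heart 3 was the lowest in each, as it was for 3 of the 4 Kcnj3 probe sets. In 1421468_at wild-type heart 2 was the lowest. All 6 markers had a lower mean in knockout hearts, with a median difference of -0.42, and 0 of 6 passed.

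Over the 6 hearts the atrial mean correlated with Kcnj3 1455374_at at Pearson r = 0.971 and Spearman rho = 0.943, and with 1444025_at at r = 0.944 and rho = 0.943. Without knockout heart 3 and wild-type heart 1, the hearts farthest from the median of the atrial mean, r was 0.874 for 1455374_at and 0.775 for 1444025_at. The other Kcnj3 probe sets followed the atrial mean less closely: r was 0.703 for 1421468_at (0.827 without those hearts) and 0.765 for 1444336_at (0.453 without them). A correlation as high was found for 0.0933% of all probe sets in the case of 1455374_at and 0.333% for 1444025_at. These values are descriptions over 6 arrays that share their genotype groups and the sex difference. With the atrial mean as a covariate, a setting chosen after seeing the data, the difference was -0.47 for 1444025_at (limma unadjusted p = 0.0088) and -0.27 for 1455374_at (limma unadjusted p = 0.0688). In whole hearts, fewer atrial cells in a sample and less RNA per atrial cell cannot be told apart.

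**Figure D2:**
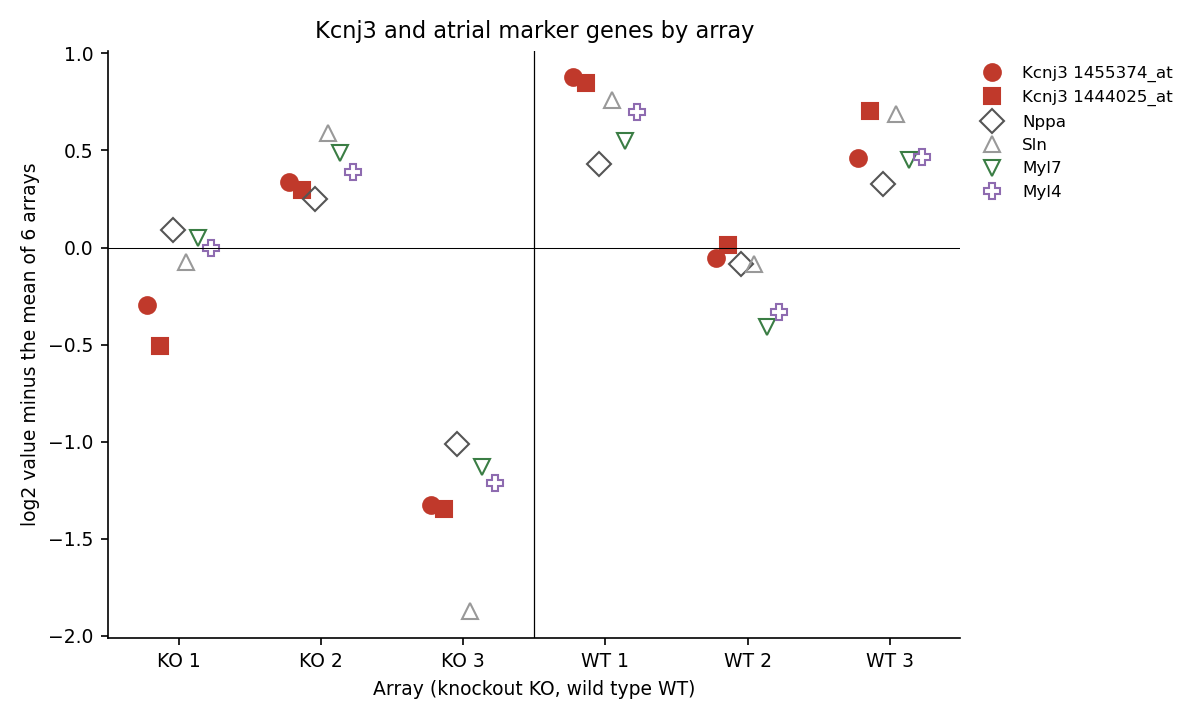
The 2 widely spread Kcnj3 probe sets (filled symbols) and 4 atrial marker genes (open symbols) in each heart, as log2 value minus the mean of the 6 arrays, with knockout hearts (KO) left of wild-type hearts (WT). Kcnj3 and the markers are lowest in knockout heart 3 and high in wild-type hearts 1 and 3. Each of them is also higher in knockout heart 2 than in wild-type heart 2.

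Kcnj5 had no such spread, though the difference between it and Kcnj3 was not tested. Its brighter probe set 1441590_at read 8.68, 8.98 and 8.70 in knockout hearts, against 8.70, 8.61 and 8.69 in wild-type hearts. Knockout heart 2 stood above the other 5, which lay close together. The difference was 0.12 (95% interval -0.09 to 0.33), and r with the atrial mean was 0.27. Without knockout heart 2 the Kcnj5 difference was 0.024, and with Xist as a covariate it was 0.30. The value with Xist rests mainly on knockout heart 2, the only knockout heart with Xist at the wild-type level. The dim probe set 1421762_at differed by 0.01, and its r with the atrial mean was 0.51. Without knockout heart 3 and wild-type heart 1, r was 0.57 for 1441590_at and 0.943 for 1421762_at. For the dim Kcnj2 probe set r was 0.40, and 0.937 without those hearts. A high r over the remaining hearts was thus not particular to Kcnj3.

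**Figure D3:**
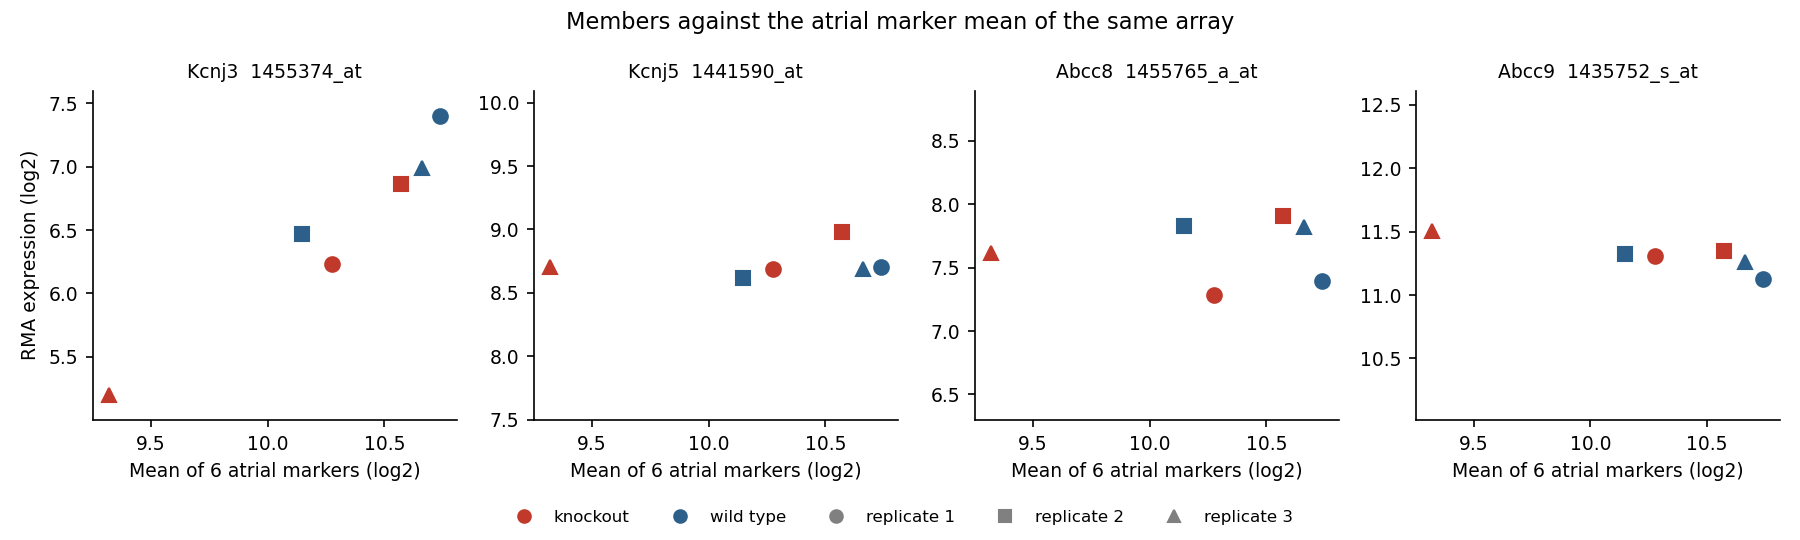
RMA expression (log2) of 4 member probe sets against the mean of 6 atrial markers (log2) on the same array, with knockout hearts in red, wild-type hearts in blue and the replicate number as the symbol. Each vertical axis spans 2.6 log2 units. Kcnj3 is shown by its most widely spread probe set and the other genes by their brightest. Kcnj3 1455374_at climbs with the markers (r = 0.971), while Abcc9 1435752_s_at runs the other way (r = -0.87). For Kcnj5 1441590_at r is 0.27 and for Abcc8 1455765_a_at it is 0.05.

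Neither KATP pore gene passed the test at any probe set. Kcnj11 encodes Kir6.2, the pore of ventricular KATP channels. Its brighter probe set 1455417_at read 8.88, 8.71 and 8.70 in knockout hearts, against 8.89, 8.81 and 8.79 in wild-type hearts. The groups overlapped through knockout heart 1, and the knockout was lower in all 3 pairs, by small amounts. The difference was -0.07 for 1455417_at, with a 95% interval of -0.25 to 0.11, and also -0.07 for 1450515_at.

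Kcnj8 encodes Kir6.1, the KATP pore of vascular smooth muscle and pericytes. Its probe set 1418142_at read 8.66, 8.81 and 8.98 in knockout hearts and 8.70, 8.76 and 8.69 in wild-type hearts. Knockout heart 3 was the highest and knockout heart 1 the lowest, so the knockout values enclosed the wild-type values. The difference was 0.10 (95% interval -0.11 to 0.30). It was 0.015 without knockout heart 3 and 0.18 without knockout heart 1.

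Of the sulfonylurea receptors, Abcc9 was higher in knockout hearts at each of its 3 probe sets and Abcc8 lower at both of its probe sets, with 0 of 5 passing. Abcc9 encodes SUR2, whose splice forms serve heart muscle and vascular smooth muscle. Its probe set 1435751_at read 10.25, 10.30 and 10.52 in knockout hearts, against 9.98, 10.23 and 10.23 in wild-type hearts. Every knockout value lay above every wild-type value, which held for 1 of the 16 members and for 8.7% of all probe sets (4.05% in the higher direction). With each array centred on its median, it held for 0 of the 16. The means were 10.36 ± 0.15 in knockout hearts and 10.14 ± 0.14 in wild-type hearts (SD, n = 3 each), a difference of 0.21 (95% interval -0.02 to 0.44, limma unadjusted p = 0.0686, adjusted p = 1.00). Without knockout heart 3 or without wild-type heart 1 the difference was 0.13. With same-numbered hearts as a block the 95% interval was 0.03 to 0.39 (limma unadjusted p = 0.0257, adjusted p = 0.703).

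The brightest Abcc9 probe set 1435752_s_at read 11.31, 11.35 and 11.50 in knockout hearts and 11.12, 11.32 and 11.26 in wild-type hearts. The knockout was higher in all 3 pairs, and the groups overlapped by knockout heart 1. The difference was 0.15 (95% interval -0.04 to 0.35), and it was 0.094 without knockout heart 3 and 0.096 without wild-type heart 1. The third, 1420408_a_at, read 8.95, 9.20 and 9.22 in knockout hearts and 8.92, 9.25 and 9.08 in wild-type hearts, with a difference of 0.04. In all, 3 of the 16 members went one way in every pair, against 27.0% of all probe sets.

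Abcc9 and Kcnj8 are both expressed in vascular mural cells. The 12 markers of pericytes and vascular smooth muscle split evenly, 6 higher and 6 lower in knockout hearts. Their mean level ranged from 8.97 to 9.10 in knockout hearts and from 8.96 to 9.01 in wild-type hearts. The mural marker Acta2, smooth muscle actin, which immature heart muscle also expresses, differed by 0.42 without passing. The 6 endothelial markers had means of 8.95 to 9.25 in knockout hearts and 8.97 to 9.21 in wild-type hearts. None of these mural and endothelial markers passed, and their part in the Abcc9 values was not tested. Over the 6 hearts r with the atrial mean was -0.87 for Abcc9 1435752_s_at, -0.83 for Abcc9 1435751_at and -0.81 for Kcnj8. Without the 2 hearts farthest from the median these became -0.34 for Abcc9 1435752_s_at, 0.35 for Abcc9 1435751_at and 0.089 for Kcnj8.

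Abcc8 encodes SUR1, the receptor of pancreatic beta cells that is also found in mouse atria. Probe set 1455765_a_at read 7.29, 7.91 and 7.62 in knockout hearts, against 7.40, 7.83 and 7.82 in wild-type hearts. Replicate 1 was the lowest in both groups, the hearts in which Ucp1 was high. The 5 brown fat markers averaged 7.22, 6.22 and 5.98 in knockout hearts and 6.92, 5.97 and 6.0 in wild-type hearts. In knockout hearts each of them was highest in replicate 1. In wild-type hearts only Ucp1 and Cidea were, while Dio2 and Zic1 were lowest there. The part of these markers in the Abcc8 values was not tested. For 1455765_a_at the difference was -0.08 (95% interval -0.46 to 0.30). Probe set 1457066_at read 6.32, 6.75 and 6.54 in knockout hearts and 6.54, 6.72 and 6.80 in wild-type hearts, a difference of -0.15 (95% interval -0.42 to 0.11). With Xist as a covariate both turned positive, to 0.22 and 0.054, values that rest mainly on knockout heart 2.

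**Figure D4:**
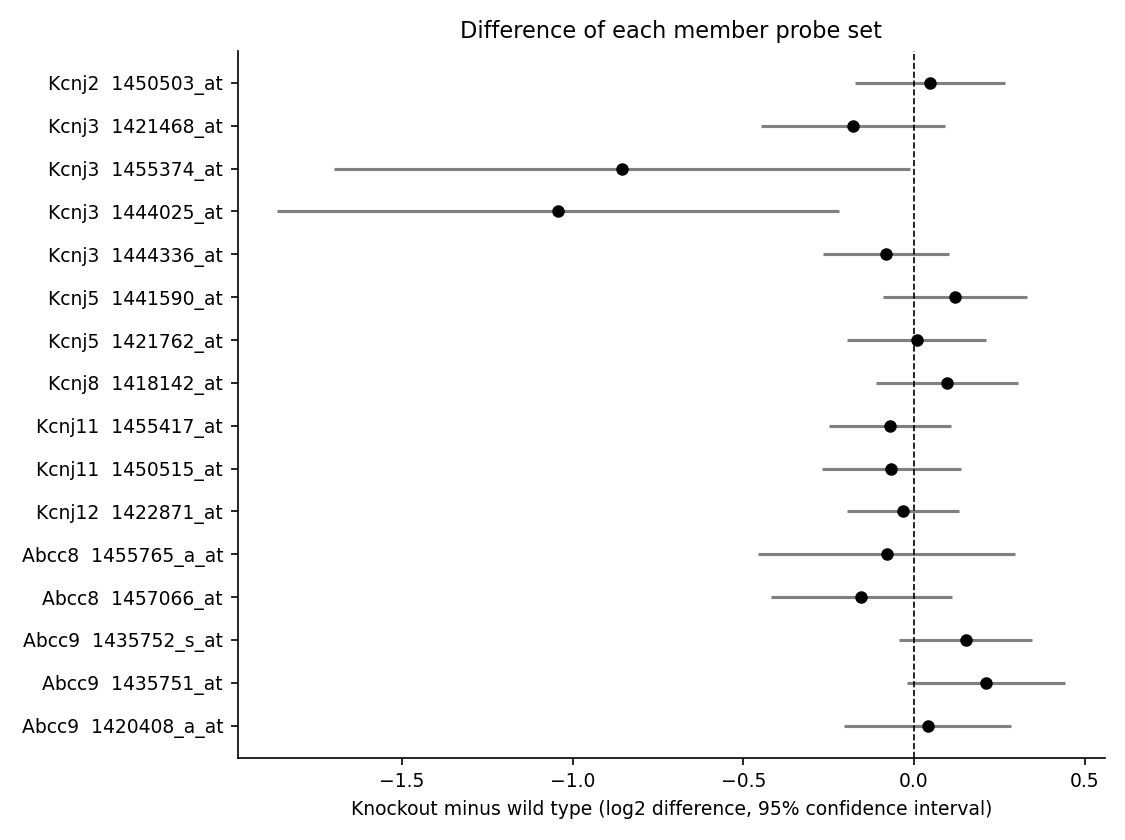
Knockout minus wild-type difference (log2) of each of the 16 probe sets with its 95% confidence interval from limma. Only the intervals of Kcnj3 1444025_at and 1455374_at lie below 0, and none passes after adjustment over all probe sets.

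The KATP genes sit in neighbouring pairs of a pore and its receptor. Kcnj8 lies beside Abcc9 and Kcnj11 beside Abcc8, with 0 protein-coding genes between the members of either pair. In both pairs the mean differences had the same sign: Kcnj8 and Abcc9 were higher and Kcnj11 and Abcc8 lower in knockout hearts. Each of their confidence intervals in the fit without a block included 0, and 0 of their probe sets passed. With the block only the interval of Abcc9 1435751_at did not include 0. How often neighbouring genes share a sign was not tested. Heart by heart, Kcnj8 and the brightest Abcc9 probe set were both highest in knockout heart 3 (8.98 and 11.50). Within each genotype, Kcnj11 1455417_at was highest in heart 1 (knockout 8.88, wild type 8.89). Abcc8 1455765_a_at was lowest there (knockout 7.29, wild type 7.40). Kcnj2 lies beside Kcnj16, another Kir pore, with 0 protein-coding genes between them.

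For 4 members, the genes with the most similar profile were named from 11540 genes, by Pearson r over the 6 hearts. For Kcnj2 these were Anxa2 (0.990), Brms1l (0.987) and Glrx (0.983). For Kcnj11 they were Intu (0.997), Serpina3n (0.994) and Fcgr1 (0.994). For Kcnj8 they were Psmb6 (0.996), Atxn2 (0.993) and Fem1a (0.993), and for Abcc9 they were Lhpp (0.997), Apbb1 (0.989) and Slc9a3r2 (0.988). With 6 arrays such values are common: 27 genes exceeded 0.95 for Kcnj2, 121 for Kcnj11, 46 for Kcnj8 and 44 for Abcc9. For Kcnj3 1455374_at, added after its values were seen, the nearest genes were Stard10 (0.986), Mybphl (0.982) and Mfap5 (0.981), and Sln reached 0.970.

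Genes that work with these channels were counted in 7 lists, of which 64 of 71 genes were measured. Of the 64, 34 were higher and 30 lower in knockout hearts, and 0 passed limma's test over 18193 genes, in which 0% passed. At an unadjusted p of 0.05, 9 of the 64 were below the threshold, against 4.1% of all genes. With same-numbered hearts as a block, 1 of the 64 passed in either direction, against 0.0715% of all genes. This was Kcnd2, a pore of the transient outward current, lower at -0.87 (limma adjusted p = 0.0318).

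Among 9 other Kir pores, 2 were higher and 7 lower, with a median difference of -0.044. Kcnj6, the neuronal Kir3.2, differed by -0.20 and Kcnj15 by 0.12. Among 11 trafficking and anchoring partners 7 were higher and 4 lower (median 0.025), with Cav3, the caveolin of muscle, at 0.15 and the kinase anchor Akap5 at 0.12. The 6 measured genes of polyamine synthesis, whose products block Kir pores from inside, had 4 higher and 2 lower (median 0.038), with Azin1 at 0.13 and Sat1 at 0.11. The median over all genes was 4.8e-04.

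PIP2 is the membrane lipid that every Kir pore needs to open. Of 9 genes for its supply and breakdown 6 were higher and 3 lower (median 0.069). Pip5k1b, a kinase that makes PIP2, read 8.34, 8.48 and 8.70 in knockout hearts, against 8.01, 8.16 and 8.35 in wild-type hearts, a difference of 0.33 (limma unadjusted p = 0.0198, adjusted p = 1.00). It was higher in all 3 pairs although the groups overlapped. Pi4k2a, which makes the precursor lipid, read 7.20, 7.19 and 7.07 in knockout hearts and 6.85, 7.0 and 6.92 in wild-type hearts, a difference of 0.23 (limma unadjusted p = 0.0141, adjusted p = 1.00). Its groups did not overlap.

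Of 10 measured genes for muscarinic and adenosine signalling to Kir3, 7 were higher and 3 lower (median 0.036). Rgs4, which shortens the G protein signal, differed by -0.20 and Gnb1, a beta subunit, by 0.20. The phosphotransfer enzymes that set the nucleotides at KATP channels had 3 higher and 6 lower of 9 (median -0.032). Ckb, the brain-type creatine kinase, read 10.39, 10.35 and 10.30 in knockout hearts and 9.95, 10.03 and 10.08 in wild-type hearts, a difference of 0.32 (limma unadjusted p = 0.00143, adjusted p = 0.741). Ckmt2, the mitochondrial creatine kinase of muscle, read 11.88, 11.46 and 11.51 in knockout hearts and 12.42, 12.02 and 11.98 in wild-type hearts, a difference of -0.52 (limma unadjusted p = 0.00659, adjusted p = 1.00, and 0.0526 with the block). Ckb and Ckmt2 had groups that did not overlap, in opposite directions, as 8.86% of all genes did in either direction. The groups of Ckm, the other creatine kinase of the list, overlapped, with a difference of 0.043. The 10 other measured potassium channel genes of heart muscle split 5 and 5 (median 0.061), with Kcnip2, a partner of Kcnd2, at 0.52.

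**Figure D5:**
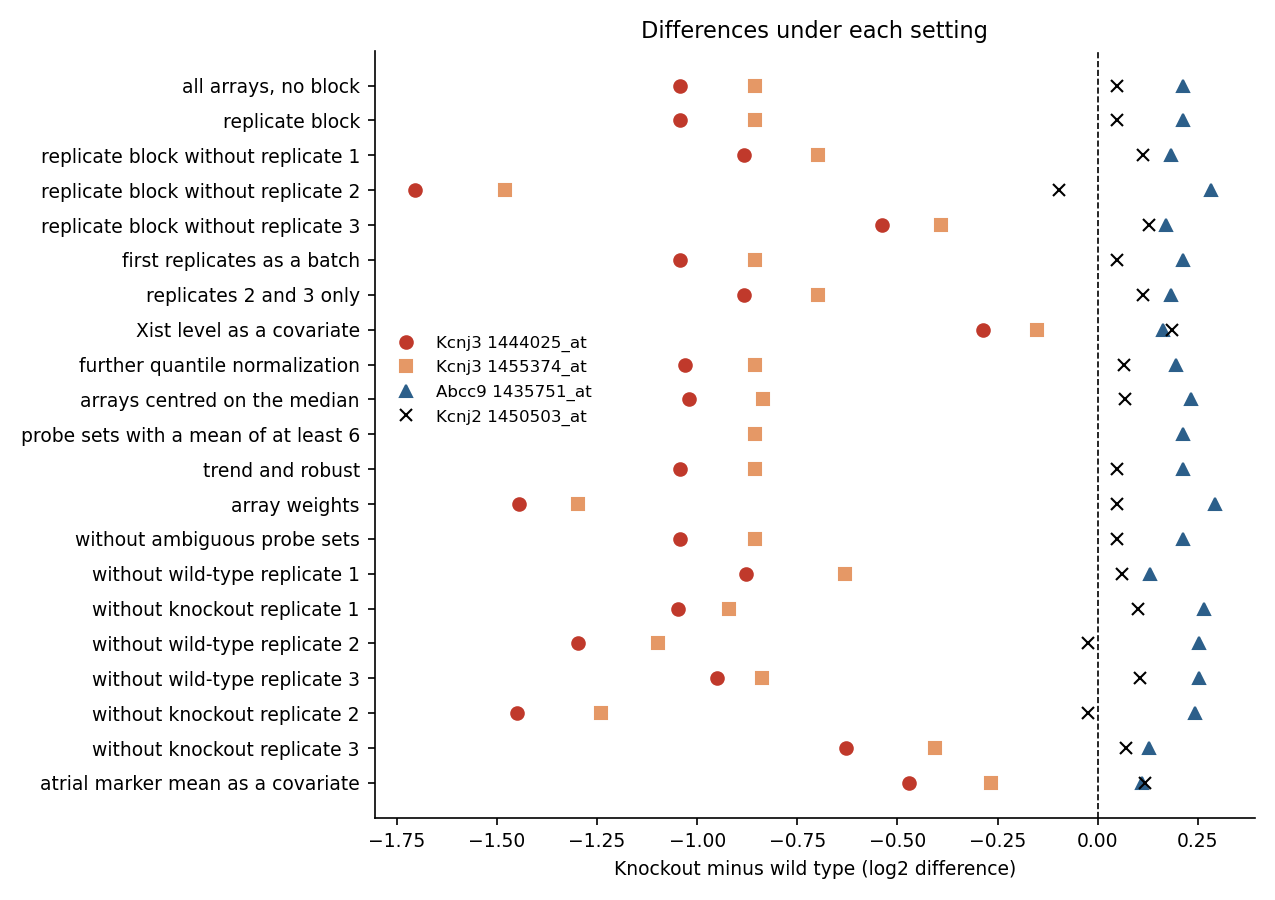
Knockout minus wild-type difference (log2) of 4 member probe sets under each way of processing the same arrays. Kcnj3 1444025_at and 1455374_at stay below 0 throughout and shrink most with Xist as a covariate. In that fit the knockout side rests mainly on knockout heart 2. Abcc9 1435751_at stays above 0, and Kcnj2 lies on either side of 0.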

How the data were processed

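The deposited log2 values were made by the authors with RMA in the affy package, per the series' design text, after scanning with GCOS 1.4, per the submitters' processing notes. After 64 control probe sets were left out, 45037 were tested, of which 34945 named 1 gene, 932 several and 9160 none in the platform annotation. A gene was represented by its brightest probe set naming 1 gene. Arrays carry no read depth, and 3 arrays a group limit the precision: the members' median 95% interval was 0.215 either side. Differences were fitted with limma 3.58.1 (R 4.3.3) with Benjamini-Hochberg adjustment over all probe sets or genes and a threshold of 0.05, and the procedure was tested on simulated data.

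Each array was taken as 1 animal, since the design text gives 3 mice a genotype. Both groups carry the replicate numbers 1, 2 and 3. After group means were subtracted, arrays with the same number correlated at 0.544, 0.178 and 0.133. All exceed 0.1, the condition set for pairs, so a replicate block was fitted as an alternative. For numbers 2 and 3 the pairing is weak: knockout 2 correlated at 0.304 with wild type 3 and knockout 3 at 0.347 with wild type 2. The sources used here do not say what a number marks.

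The members and lists were chosen with earlier results of these data known. Every member and probe set was named, with the 2 genes of smallest p in each pathway list and the 3 genes most correlated with Kcnj2, Kcnj11, Kcnj8 and Abcc9. Alternatives were the block, Xist, arrays left out, scaling, filters and weights. In the fit with Xist the genotype difference rests mainly on knockout heart 2, since the other knockout hearts were low in Xist. Further marker lists were counted: 9 skeletal muscle genes (3 higher, 6 lower in knockout hearts), 4 of 5 autonomic neuron genes (1 higher, 3 lower) and 4 of 5 conduction genes (2 higher, 2 lower), with 0 passing. Sequences came from RefSeq (GRCm38.p6), which matched 6 of the 8 members.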

Additional observations from a re-analysis of the deposited data

How the results depend on the processing

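The 2 Kcnj3 probe sets kept their sign in every setting that held them, and did not pass in any of these but the replicate block without replicate 2, in which 2 members passed. Leaving out 1 array at a time gave 0 members. With the replicate block on all hearts 0 members passed, 3 had an unadjusted p under 0.05 (against 6.49% of all probe sets), and the lowest adjusted p was 0.651. The count of passing probe sets was 3, and it was 20 with the replicate block (0.0444%), 55 with the block without replicate 2 (0.122%), 24 with replicate 1 of both groups as a batch, 24 with array weights, 6 with a trend and robust fit, and 0 with Xist as a covariate, with a mean of at least 6 or without ambiguous probe sets. It ran from 1 to 15 with 1 array left out. The count of passing genes was 0, and it was 13 with the block, 11 with the block without replicate 1, 36 with the block without replicate 2, 15 with the batch, 1 with replicates 2 and 3, 416 with array weights and 3 with the mean of a gene's probe sets. It ran from 0 to 4 with 1 array left out. Of 311 member values over 20 settings, 17 changed sign. In the block without replicate 2, Kcnj2 was -0.097, Kcnj5 1441590_at -0.0041, Kcnj5 1421762_at -0.10 and Kcnj12 0.014. Kcnj12 was 0.0035 with array weights. With Xist, Kcnj3 1444336_at was 0.0046, and the Abcc8 probe sets were 0.22 and 0.054. Abcc9 1420408_a_at was -0.012 in the block without replicate 3 and -0.034 with the atrial mean. With 1 array left out, Kcnj2 ran from -0.026 to 0.11, Kcnj5 1421762_at from -0.078 to 0.067, Abcc8 1455765_a_at from -0.23 to 0.079 and Abcc9 1420408_a_at from -0.041 to 0.12. The cause of these changes was not tested.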

Other observations

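In 8 of the 16 probe sets, of 4 genes, the knockout was higher in pair 2 and lower in pairs 1 and 3. These were Kcnj2, the 4 probe sets of Kcnj3, Kcnj5 1421762_at and both probe sets of Abcc8. The same order of signs was found in 10.9% of all probe sets, and the opposite order in 12% of all probe sets and 1 of the 16. Pair 2 was the only pair in which the Xist level was alike in the knockout and the wild-type heart (12.19 and 12.13). The atrial markers Nppa, Sln, Myl7 and Myl4 had the same order of signs, while Bmp10 and Nr2f2 were lower in every pair. The part of sex or of atrial tissue in this order was not tested. The probe sets of 1 gene share their transcript and are not independent.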
